A study of Mus musculus with 2 samples.

Results

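The genes described here are 8 ion channels and transporters of the sperm plasma membrane other than the CatSper calcium channel, out of 43346 genes in the deposited tables. They were chosen by name: the potassium channel gene Kcnu1 and its auxiliary subunit gene Lrrc52, the sodium-proton exchanger genes Slc9c1 and Slc9b1, the proton channel gene Hvcn1, the sodium pump gene Atp1a4, the anion transporter gene Slc26a8 and the calcium pump gene Atp2b4. The polyA RNA came from testis of 1 male C57BL/6J mouse, an adult of 10 weeks from an inbred laboratory strain, with no mutation or treatment named in the labels. The single group holds 2 technical libraries of that animal, replicate 1 and a later replicate 2, with totals of 31995370 and 20675521 rounded expected counts. Every pair of values below is in the order replicate 1 and replicate 2, and each SD (n = 2) measures the technical spread only, since no second animal was sequenced.

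Sperm take up fertilizing ability in the female tract in steps that depend on ion transport across the flagellar membrane. Bicarbonate activates a soluble adenylyl cyclase, the cell interior becomes alkaline, potassium efflux through SLO3 channels makes the membrane potential more negative, and calcium entry changes the beat of the tail. The sodium pump maintains the sodium gradient that exchangers use, and plasma membrane calcium pumps return calcium to the outside. Sperm transcribe little or nothing themselves, so the messenger RNAs for these proteins are made in the testis, mainly in spermatocytes and round spermatids.

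Of the 8 genes, 7 were detected, meaning that both libraries held at least 1 TPM (a level that allows for transcript length and library depth). Among 21474 annotated protein-coding genes, 54.6% met the same limit. All 7 were above 20 TPM in both libraries, and the exception was Hvcn1. The median over the 8 genes was 60.3 and 71.5 TPM, against 13.8 and 20.8 TPM over the detected protein-coding genes. The 8 levels summed to 866 and 759 TPM (mean 813 ± 75.4 SD, n = 2). The deposited posterior SD of the gene count was 0 for all 8 in both libraries, so the deposited estimates divided none of the reads counted for them with another gene.

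In order of mean TPM the genes were Atp1a4, Slc9b1, Slc9c1, Slc26a8, Kcnu1, Lrrc52, Atp2b4 and Hvcn1. Neighbours in that order mostly had overlapping ranges over the 2 libraries, so their order was not resolved. The neighbours whose ranges did not overlap were Kcnu1 and Lrrc52, with a ratio of means of 1.86, and Atp2b4 and Hvcn1, with a ratio of 72.3. Slc9b1 led in replicate 1, with 30.3% of the summed TPM, and Atp1a4 led in replicate 2, with 43.2%. When counts were scaled by 1 fixed transcript length per gene in place of the estimated effective length, Atp1a4 led in both libraries. On that scale Slc9c1 was also above Slc9b1 in replicate 1 (303 against 217), where the fixed length of Slc9b1 was 2248 bases and its estimated length 1377 bases.

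**Figure D1:**
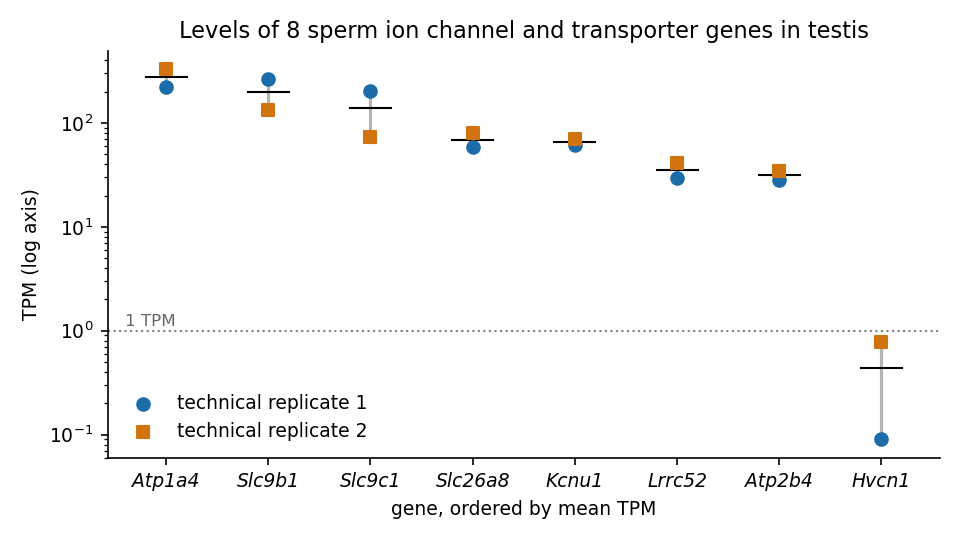
TPM of the 8 genes on a log axis, with 1 point per technical library and a bar at the mean of both. Of these genes, 7 lie between 28.19 and 328.24 TPM, and Hvcn1 lies below 1 TPM in both libraries.

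Testis marker lists checked the label of the tissue: all 5 spermatid, all 4 spermatocyte, all 5 Sertoli and all 4 Leydig markers were detected in both libraries. Summed levels were 5381 and 20648 TPM for spermatids, 5454 and 5595 TPM for spermatocytes, 949 and 1302 TPM for Sertoli cells and 400 and 1975 TPM for Leydig cells. The members of a list did not move together. Of the spermatid markers, Tnp1 (1008 and 9611 TPM) and Prm1 (3011 and 10087 TPM) were higher in replicate 2, and Spaca1 (503 and 245 TPM), Zpbp2 (471 and 333 TPM) and Acrv1 (388 and 372 TPM) were lower. Of the spermatocyte markers, Ldhc was higher in replicate 2 (2850 and 4131 TPM), and Sycp3 (807 and 263 TPM), Hormad1 (502 and 157 TPM) and Pgk2 (1294 and 1045 TPM) were lower. Of the Leydig markers, Cyp17a1 (225 and 242 TPM) made up most of the sum in replicate 1, and Insl3 (83.2 and 1630 TPM) most of it in replicate 2. In bulk tissue, a level does not tell the number of cells of a type from the RNA per cell. Both libraries are technical replicates of 1 animal, so the differences above lie between libraries and not between animals. The part of these differences in the results below was not tested.

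Kcnu1 encodes SLO3, the sperm potassium channel that opens on alkalinization and depolarization. The gene (ENSMUSG00000031576.11) lies on the plus strand at chr8:25849623-25937939 of mm10. Its level was 61.9 TPM in replicate 1 and 69.4 TPM in replicate 2 (65.7 ± 5.30, n = 2), from 4364 and 2414 counts. By their ratio, these TPM values were the closest of the 8 genes, and they stood at percentiles 88.8 and 87.4 of protein-coding genes. Lrrc52 encodes the leucine-rich repeat subunit that shifts the gating of SLO3. The gene (ENSMUSG00000040485.5) lies on the minus strand at chr1:167445669-167466780. It had 606 and 547 counts and levels of 29.2 and 41.4 TPM (35.3 ± 8.63, n = 2). The channel gene was therefore above its subunit gene in both libraries, by ratios of 2.12 and 1.68.

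The closest relative of Kcnu1 is Kcnma1, the BK channel of muscle, neurons and glands. Kcnma1 was near the detection limit, at 1.04 and 1.40 TPM. Kcnu1 was 59.5-fold higher in replicate 1 (95% interval 48.7 to 73.6) and 49.6-fold higher in replicate 2 (39.3 to 63.5). With 1 fixed transcript length per gene, the ratios were 154 and 113. Lrrc26, the BK channel subunit related to Lrrc52, had 1 count in replicate 1 and 10 counts in replicate 2, or 0.05 and 0.72 TPM. Lrrc52 was 57.6-fold higher than Lrrc26 in replicate 2 (31.1 to 121). In replicate 1 the ratio rested on the single Lrrc26 count. All such intervals are exact (Clopper-Pearson) and cover counting error within a library only.

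Among 10 other SLO and BK channel genes, 2 were detected in both libraries, Kcnma1 and Kcnmb4. Kcnmb4, a BK beta subunit, was at 11 and 51.2 TPM, and Kcnmb3, another, at 0.72 and 2.62 TPM. All 10 together summed to 14.9 and 59.5 TPM, which was below Kcnu1 alone in each library.

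Kcnu1 was the first of 3 genes whose estimated transcript makeup differed between the libraries. In replicate 1 the full-length Kcnu1-201 (27 exons, 1121 codons) held 96.7% of the gene's level. In replicate 2 it held 61.98%, and 35.5% was assigned to Kcnu1-202, an 8-exon transcript that begins 62057 bases downstream. Kcnu1-202 had 0 counts in replicate 1 and 428 in replicate 2. Its 381 codons are in the frame of Kcnu1-201 and lack the first 740, and in SLO channels the membrane-spanning pore lies in the N-terminal portion that is missing. The remaining transcript, Kcnu1-203, held 3.30% and 2.51%. The sequences at the point where the transcripts join show what the reads have to distinguish, with the exon that differs in capitals and the shared exon in lower case, 5′ to 3′, from the GENCODE M21 transcripts. In Kcnu1-201, exon 20 joins exon 21. In Kcnu1-202, its own first exon (chr8:25911680-25911749) joins the same exon.
Kcnu1-201: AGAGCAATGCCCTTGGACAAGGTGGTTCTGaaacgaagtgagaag
Kcnu1-202: AAGAAAAGCTGAGAGaaacgaagtgagaag

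Slc9c1 encodes the sperm-specific exchanger sNHE, which carries a voltage sensor and a cyclic nucleotide-binding domain and is needed for sperm motility. The gene (ENSMUSG00000033210.12) lies on the plus strand at chr16:45535309-45607001. It had 16161 counts in replicate 1 and 3684 in replicate 2, and levels of 204 and 73.6 TPM (139 ± 92.4, n = 2). Its rank among the 8 genes was 3 in replicate 1 and 4 in replicate 2. Nearly all of its level was Slc9c1-201, at 99.7% and 100%, so transcript makeup did not differ with the level.

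Slc9b1 encodes an exchanger of the NHA branch, found mainly in testis and sperm. The gene (ENSMUSG00000050150.12) lies on the plus strand at chr3:135348029-135397827. It had 6772 and 3032 counts and levels of 262 and 132 TPM (197 ± 92.4, n = 2). Like Slc9c1, it was higher in replicate 1 than in replicate 2.

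Slc9b2, the widely expressed NHA branch relative, lies 2642 bases from Slc9b1 and had 1 count in each library, or 0.05 and 0.07 TPM. The ratio of Slc9b1 to Slc9b2 was 5248 (942 to 207331) in replicate 1 and 1883 (338 to 74399) in replicate 2, and both rest on that single count. With 1 fixed length per gene the ratios were 14514 and 6498, and with posterior mean TPM 549 and 189. The printed intervals are wide, and both lie above 1.

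Of 10 other exchanger genes, 5 were detected in both libraries, Slc9a2, Slc9a5 and Slc9a8 among them. Slc9a8, an exchanger of the Golgi and acrosome, was the highest of the 10 by mean, at 16.4 and 24.4 TPM. It was below Slc9c1 and Slc9b1 in both libraries.

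On the TPM scale, the difference in Slc9b1 between the libraries lay outside its full-length transcript. Slc9b1-201 (13 exons, 565 codons) was at 94.5 and 93.4 TPM, from 4224 and 2645 expected counts. Slc9b1-203, a 4-exon transcript of 588 bases whose 3′ end is annotated as incomplete, was at 104 TPM from 903 counts in replicate 1 and at 0 in replicate 2. As shares of TPM, Slc9b1-201 held 36.01% and 70.8% of the gene, and Slc9b1-203 held 39.6% and 0.00%. Annotated retained-intron transcripts held 15.8% and 5.22%, and Slc9b1-207, annotated for nonsense-mediated decay, held 5.48% and 16.8%. As shares of expected counts, which make no allowance for length, Slc9b1-201 held 62.4% and 87.2% and led in both libraries. Slc9b1-203 then held 13.3% and 0%. The transcripts differ at the junction below, where exon 2 of Slc9b1-201 (chr3:135348327-135348773) ends with the first 5 coding bases, and Slc9b1-203 joins another exon to the same acceptor. Capitals mark the exon that differs between the transcripts and lower case the shared exon.
Slc9b1-201: CTCCTGAAAGATGAGtgagcacgacgtaga
Slc9b1-203: CTAAAGGAAGTGTAGtgagcacgacgtaga

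**Figure D2:**
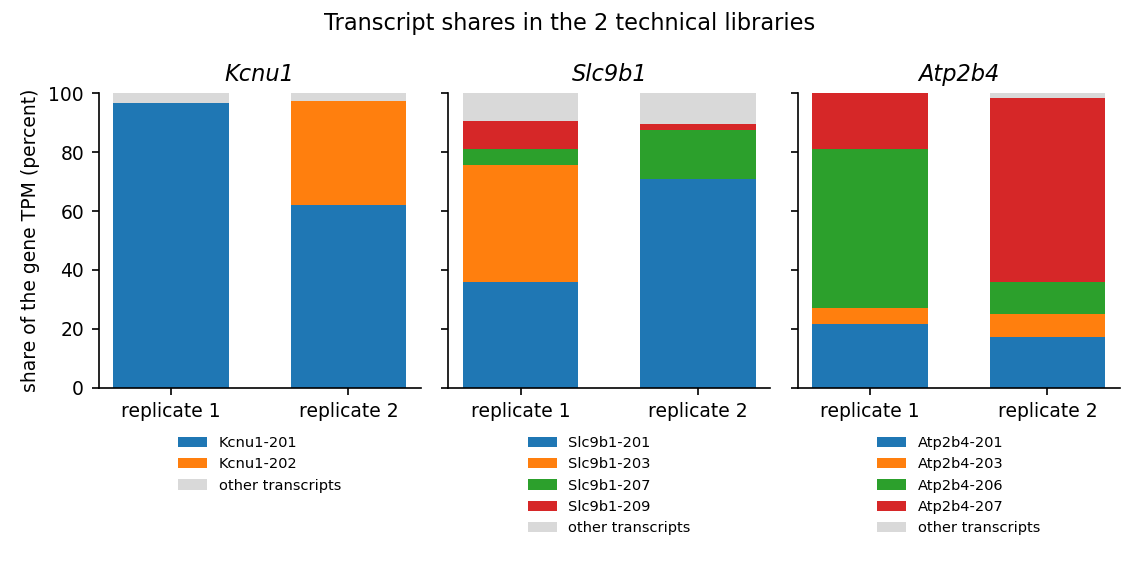
Deposited share of each transcript, in percent of its gene's level, for Kcnu1, Slc9b1 and Atp2b4 in each library. Kcnu1-202 is at 0 and 35.5%, Slc9b1-203 at 39.6% and 0.00%, and the leading Atp2b4 transcript is Atp2b4-206 in replicate 1 and Atp2b4-207 in replicate 2.

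RefSeq promoter windows (GRCm38.p6, 250 bases before to 50 after the start) matched 6 of the 8 genes. Those of the exchangers, the only ones with both a GC box and a CCAAT box, are shown in part. The motifs were the GC box GGGCGG, the CCAAT box, the cAMP-response palindrome TGACGTCA and the TATA box TATAAA, each on both strands. The stretches below run from 120 bases before to 10 after the start on the plus strand, with GC and CCAAT boxes in capitals.
Slc9c1, chr16:45535146-45535275: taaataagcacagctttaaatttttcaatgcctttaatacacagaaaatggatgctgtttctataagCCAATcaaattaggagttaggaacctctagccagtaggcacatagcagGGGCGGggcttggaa
Slc9b1, chr3:135347909-135348038: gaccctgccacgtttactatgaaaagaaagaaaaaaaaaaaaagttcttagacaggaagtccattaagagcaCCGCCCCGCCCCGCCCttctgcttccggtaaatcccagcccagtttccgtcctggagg

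Slc9b1 has 3 overlapping copies of the GC box, read on the other strand, at 48, 43 and 38 bases before its start. In Slc9c1, CCAAT begins 53 bases and GGGCGG 5 bases before the RefSeq start. That start lies upstream of the GENCODE gene start at 45535309, so both motifs are further from the GENCODE start. Over the 6 windows, the GC box was found in 3 (Lrrc52, Slc9b1 and Slc9c1), against 35.7% of all 32851 windows. CCAAT was found in 3 (Slc9b1, Slc9c1 and Slc26a8), against 37.4%, and that of Slc9b1 lies outside the printed stretch. TGACGTCA and TATAAA were in none of the 6, against 1.79% and 13.6% of all windows. The Slc9c1 window was the poorest of the 6 in GC, at 37.3%, where the median of all windows was 52.7%.

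Hvcn1 encodes the voltage-gated proton channel Hv1, which was described as the proton exit route of human sperm and is also abundant in leukocytes. The gene (ENSMUSG00000064267.9) lies on the plus strand at chr5:122206804-122242297. It had 5 counts in replicate 1 (exact Poisson 95% interval 1.62 to 11.7) and 28 in replicate 2 (18.6 to 40.5). These gave 0.09 and 0.78 TPM (0.435 ± 0.488, n = 2), at percentiles 24.3 and 32.7 of protein-coding genes. Both values were below the detection limit, and above the 3 counts that a count of 0 would allow.

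Leukocyte markers stood beside this trace: 1 of 7 was detected in both libraries, Lyz2, at 15.9 and 30.8 TPM. Their summed level was 19.7 and 56.9 TPM. Ptprc was lower in replicate 2 (1.65 and 0.64 TPM), and Cd79a was at 0 in both. Like Lyz2, the others were higher in replicate 2: C1qb (0.46 and 15.99 TPM), Csf1r (0.74 and 5.32 TPM), Cd68 (0.71 and 3.27 TPM) and Cd3e (0.22 and 0.87 TPM). Hvcn1 also shares 4450 bases with Tctn1 on the opposite strand, a gene at 6.26 and 27.7 TPM. The sources used here do not say whether counting used strand, and the deposited estimates divided no reads between the genes. The part of leukocytes or of Tctn1 in the Hvcn1 counts was not tested. Of its relatives with a voltage-sensor domain, Tpte, a testis-expressed relative of phosphatases, was at 14.0 and 6.53 TPM, and Tmem266 was at 0.04 and 0.85 TPM.

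Atp1a4 encodes the alpha 4 catalytic subunit of the sodium pump, which is made in male germ cells and sustains motility. The gene (ENSMUSG00000007107.6) lies on the minus strand at chr1:172223513-172258414. It had 15687 and 14791 counts and levels of 221 and 328 TPM (275 ± 75.7, n = 2), at percentiles 96.6 and 97.6 of protein-coding genes. It was thus the highest of the 8 genes by mean and had the most counts of them in replicate 2. Atp1a4-201 held 99.55% and 100% of its level, and the antisense gene within it, Gm37950, had 0 counts in both libraries.

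A sodium pump needs a beta subunit to reach the membrane, and the highest of 14 other pump subunit genes was the beta subunit Atp1b3, at 504 and 340 TPM. Atp1b3 was 2.28 times Atp1a4 in replicate 1 and 1.04 times in replicate 2. In all, 9 of the 14 were detected in both libraries, and Fxyd4, a kidney regulator of the pump, was at 0 in both.

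Slc26a8 encodes TAT1, an anion transporter of the sperm annulus that binds CFTR and a small G protein regulator. The gene (ENSMUSG00000036196.11) lies on the minus strand at chr17:28637783-28690233. It had 4356 and 3765 counts and levels of 58.7 and 79.5 TPM (69.1 ± 14.7, n = 2). Its rank among the 8 genes was 5 in replicate 1 and 3 in replicate 2. Slc26a8-201 held 95.5% and 97.9% of its level.

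The epithelial relative Slc26a6 had 19 and 60 counts and levels of 0.28 and 4.97 TPM. Slc26a8 was 210-fold above it in replicate 1 (134 to 349) and 16.0-fold in replicate 2 (12.4 to 20.99). The ratios were 272 and 74.6 with 1 fixed length per gene, and 63.3 and 13.1 with posterior mean TPM. Slc26a8 held 62.8% and 74.3% of the TPM over 11 SLC26 genes, a sum chosen after the values were seen. Of 12 other SLC26 and partner genes, 4 were detected in both libraries, Slc26a2, Slc26a7, Cftr and Racgap1. Slc26a2 was at 13.94 and 9.63 TPM and Slc26a7 at 18.85 and 7.51 TPM, both closer to Slc26a8 than Slc26a6 was. Racgap1, the G protein regulator that binds SLC26A8, was at 29.7 and 45.4 TPM, and Cftr, the chloride and bicarbonate channel, at 20.6 and 9.30 TPM. Slc26a8 was above both partners in both libraries.

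Atp2b4 encodes PMCA4, the main plasma membrane calcium pump of sperm, whose loss makes male mice infertile. The gene (ENSMUSG00000026463.13) lies on the minus strand at chr1:133699457-133801041. It had 5948 and 3782 counts and levels of 28.2 and 34.7 TPM (31.4 ± 4.58, n = 2). This was the lowest level of the 7 detected genes by mean, although its counts exceeded those of Kcnu1 and Slc26a8 in both libraries, because its effective length (9726 and 7967 bases) was the longest of the 8.

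Atp2b1, the pump of most somatic cells, was at 10.5 and 5.83 TPM. Atp2b4 was 2.68-fold above it in replicate 1 (2.54 to 2.84) and 5.95-fold in replicate 2 (5.44 to 6.51). Of the 4 plasma membrane pump genes, Atp2b4 held 71.8% and 81.2% of the TPM, again a share computed after the values were seen. Among 10 other calcium pump and subunit genes, 5 were detected in both libraries. The highest by mean TPM were Bsg and Nptn, which encode the basigin and neuroplastin subunits that plasma membrane calcium pumps require, at 227 and 636 TPM for Bsg and 127 and 63.2 TPM for Nptn. Both subunit genes were above Atp2b4 in both libraries.

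Near its end the Atp2b4 transcript either includes or skips an exon, a choice known to set whether the pump has the short "a" or the long "b" form of its calmodulin-binding tail. Transcripts with the exon (Atp2b4-201 and Atp2b4-203) held 27.0% and 25.1% of the level, and those that skip it (Atp2b4-206 and Atp2b4-207) held 73.0% and 73.5%. This grouping was chosen after the values were seen. The skipping forms thus led in both libraries, with nearly the same share. Of the 1166 codons of Atp2b4-201, 62 differ from Atp2b4-207, which has 1205 codons, 101 of them its own.

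The split between the skipping transcripts was less stable. Atp2b4-206 held 54.1% in replicate 1 and 10.9% in replicate 2, and Atp2b4-207 held 18.8% and 62.6%. Both have the same coding exons. Atp2b4-206 starts 47294 bases further upstream and ends 3217 bases further downstream, so the change of leading transcript concerned only untranslated ends. The leading transcript was the same in replicate 1 and replicate 2 for 5 of the 7 detected genes, against 77.6% of 13778 genes detected in all. Of the 6 with more than 1 transcript it was the same for 4, against 66.2% of 9123 such genes, and the exceptions were Slc9b1 and Atp2b4. Hvcn1 would make it 6 of 8, on 5 and 28 counts, but not with posterior means.

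**Figure D3:**
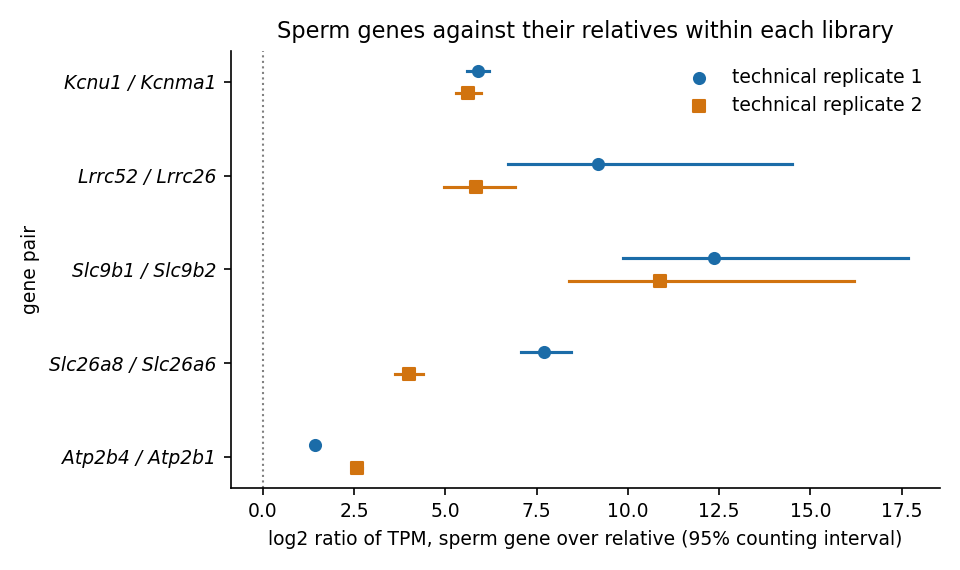
Log2 ratio of the TPM of each of 5 genes to that of its relative, with exact 95% intervals for counting error, in each library. All 5 ratios are above 1 (0 on the log2 axis) in both libraries, and the lowest is that of Atp2b4 to Atp2b1 in replicate 1, a ratio of 2.68.

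In all 5 pairs the gene of the set described here was therefore higher than its relative in both libraries. Each interval excluded a ratio of 1. The pairs were chosen with such levels known, so the count is a description of this testis. The RNA was of bulk testis, so the ratios, that of Atp2b4 to Atp2b1 among them, do not contrast a sperm form with a somatic one. Which cells made the RNA of either gene was not tested. The size of the ratio differed by more than 1.5 times between the libraries in every pair except Kcnu1 and Kcnma1. For the Lrrc52 and Slc9b1 pairs the intervals of the libraries overlapped, so a difference in ratio was not resolved there.

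Upstream of these transporters stand the genes of bicarbonate handling, of which 6 of 11 were detected in both libraries. That is near the 54.6% of all protein-coding genes, the share that also stands beside the counts of the lists of relatives above. Adcy10, the soluble adenylyl cyclase that bicarbonate activates, was at 137 and 151 TPM, below Atp1a4 in both libraries. Car2, a cytosolic carbonic anhydrase, was at 41.8 and 179 TPM.

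The libraries were also compared directly, gene by gene, which tests the reads of these 2 libraries and not conditions or animals. On TMM-scaled counts (edgeR) with an exact conditional binomial test, 2 of the 8 genes differed at an adjusted p (Benjamini-Hochberg) under 0.05 and a ratio of 2 or more, against 56.0% of 18581 genes. Slc9c1 was 3.47-fold higher in replicate 1, where 23.9% of genes were called in that direction. Hvcn1 was 6.55-fold higher in replicate 2 (5 against 28 counts, adjusted p = 5.01e-06 by the exact test), where 32.1% were. The share among the 8 was below the background. With a mean of 100 counts or more, Hvcn1 was not tested and 1 gene was called (55.7% of all tested). At a ratio of 4 or more only Hvcn1 was called (23.5%), and at 1.5 or more Slc9b1 was called as well (71.2%).

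The log2 ratios of replicate 2 over replicate 1 were small for Slc26a8 (0.13), Lrrc52 (0.19, adjusted p = 0.0318 by the exact test) and Atp1a4 (0.25). They were -0.32 for Atp2b4, -0.52 for Kcnu1 and -0.82 for Slc9b1, all within the limit of 2-fold. The TPM ratio had the other sign for Kcnu1 (0.16) and Atp2b4 (0.30), so for these genes the direction depended on the scale. The median over the 8 genes was -0.09 on TMM-scaled counts, and that over all tested genes -0.00.

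These ratios moved with base composition. Over the tested genes, the median log2 ratio was -1.68 for the 1204 genes with a transcript GC content of 35 to 40%, -0.40 for those of 45 to 50%, and 4.68 for the 628 genes of 60 to 65%. Slc9c1 had the lowest GC content of the 8 genes, at 39.3%, and Hvcn1 the highest, at 54.5%. Among the relatives, Kcnmb4 had 63.2% and was higher in replicate 2. When each gene was compared with genes of like GC content, none of the 8 was called, against 20.2% of all tested genes. The log2 ratio of Slc9c1 was then -0.19, that of Slc9b1 -0.10, that of Kcnu1 0.13 and that of Hvcn1 0.87.

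**Figure D4:**
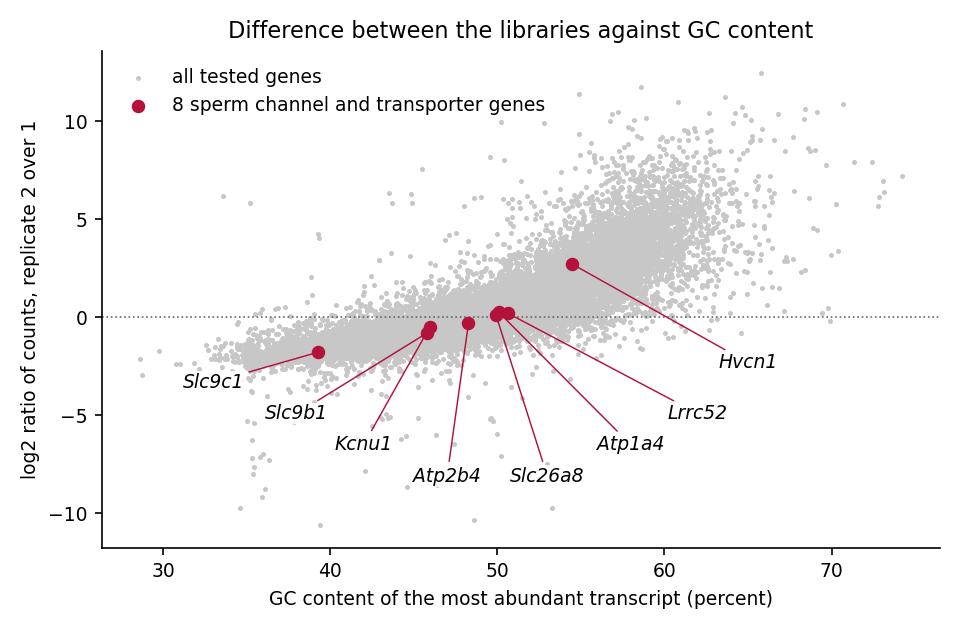
Log2 ratio of replicate 2 over replicate 1 on TMM-scaled counts against the GC content of the most abundant transcript in percent, for all tested genes and the 8 genes named. The ratio rises with GC content, and Slc9c1 (39.3% GC, -1.80) and Hvcn1 (54.5% GC, 2.71) are the outermost of the 8.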

How the data were processed

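PolyA RNA of testis from 1 mouse was measured in 2 technical libraries. Per the deposited notes, genes and transcripts were quantified on mm10 with annotation M4. No aligner or quantifier is named, as this was not given in the sources used here. For each library the authors gave expected counts (estimated reads per gene), TPM and FPKM, and transcript shares as a percent. The deposited signal values are posterior SDs of counts and TPM bounds of unstated level, beside posterior means. Names, positions and transcript sequences came from GENCODE M21, matched by identifier for 42462 of 43346 genes. Promoters came from RefSeq. The 26345 other table entries held 5 and 0 counts and were left out.

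Computed here were means and SDs of TPM, ratios within a library with exact 95% intervals, and log2 ratios between libraries with 0.5 added. Expected counts were rounded, and library sizes scaled by TMM (edgeR 4.0.16, factors 0.904 and 1.11). The exact two-sided binomial p-values received Benjamini-Hochberg adjustment across 18581 genes, those whose mean count reached 10, with 100 GC bins as an alternative. A count of 0 allows up to 3 counts, or 0.0938 and 0.145 CPM. Intervals cover counting error only: without molecular identifiers, reads are not independent molecules. The test was checked on simulated Poisson counts with no GC trend. These libraries differ in that respect, so the check does not give the error rate here. R 4.3.3, Python 3.11.15, pandas 2.3.3, scipy 1.17.1 and DESeq2 1.42.0 were used.

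The 8 genes, lists, pairs and tests were chosen with earlier results of these data known. Named genes are the 8, both genes of each pair and the 2 highest of each list of relatives by mean TPM. Slc9a2, Slc9a5, Slc26a2, Slc26a7, Fxyd4, markers and overlapping genes were named after their values were seen. Of the 7 pairs planned, 5 are given, and a few of the genes and sequences that this rule takes in are not reported here. Slc9c2, on the exchanger list, was not analysed here.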

Additional observations from a re-analysis of the deposited data

How the results depend on the processing

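The count of 7 detected genes held at limits of 0.5, 2 and 5 TPM, with FPKM and with posterior means, each required in both libraries. It also held at 1 TPM in each library alone. Hvcn1 had posterior means of 0.27 and 1.09 TPM, and in replicate 2 its 0.78 TPM exceeded the limit of 0.5 TPM. The 5 pairs kept their direction with FPKM, posterior means, fixed lengths and each library alone, though not their size. The summed level was 545 in FPKM, and 759 to 866 TPM in single libraries. Between the libraries, 2 of the 8 genes were called, 0 after GC correction, 1 with a mean of 100 counts or more (55.7% of genes called) and 1 at a ratio of 4 or more (23.5%). A ratio of 1.5 or more added Slc9b1, for 3 in all (71.2%). Over all genes, 10400 were called, 3746 after GC correction and 4375 at a ratio of 4 or more. Plain library totals moved the median of all genes from -0.00 to 0.29 on the log2 scale, and the TPM ratio to 0.26. With totals, 6723 genes were called higher in replicate 2 and 2856 in replicate 1, against 5963 and 4437 with TMM. The log2 ratio changed sign after GC correction for Kcnu1 (0.13), Lrrc52 (-0.23), Atp1a4 (-0.018) and Slc26a8 (-0.10), and with TPM for Kcnu1 (0.16) and Atp2b4 (0.30). The cause was not tested. Over all 8 genes, the count with the same leading transcript was 6, and 5 (posterior means) to 7 (shares of expected counts) otherwise. No paired analysis was possible because there is 1 group, and a comparison of 2 libraries cannot leave one out. Depth limits the ratios of Lrrc26 and Slc9b2, each resting on 1 count in at least 1 library, and the level of Hvcn1.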
